A study of Mus musculus with 14 samples.

Results

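Transcript levels of 9 genes known to respond to glucocorticoids were followed in bladder and urethral epithelium of the mouse embryo. The genes were Sgk1, Fkbp5, Tsc22d3, Per1, Klf9, Zbtb16, Cebpd, Mt1 and Mt2, matched by symbol among the 55228 genes counted in every library. They are known responders that were chosen by their levels at E18.5 against E14.5 in these same libraries, so their differences between stages describe the choice and are given without a test. Bladder against urethra at each stage was not the contrast of the choice and was tested. The tests used the same libraries as the choice, so their p-values are not independent of it. The change of the tissue difference between stages was tested too. It is also the stage change in bladder less the one in urethra. It therefore draws on the values used in the choice, and its results for the 9 genes are read as a description.

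The libraries came from wildtype CD-1 mice that, per the labels, had received no treatment. There were 3 libraries of bladder epithelium and 3 of urethral epithelium at embryonic stage E18.5, and 4 of each at E14.5. Each library pooled epithelium of all female embryos in 1 litter, freed from the surrounding tissue with trypsin and forceps, and the protocol notes give 3 litters per type where the E14.5 labels give 4 libraries. Whether a bladder and a urethral library came from the same litter is not given, and replicates were pools, so the spread between them is a spread between pools. A library held 21101269 to 36810672 assigned counts, with 21966 to 24258 genes detected. The 2 stages were deposited as separate tables, and whether the stages were prepared and sequenced together is not given in the sources used here.

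Glucocorticoids enter cells as corticosterone in the mouse, bind the glucocorticoid receptor Nr3c1 held ready by the Hsp90 chaperones, and the receptor then binds DNA at paired hexamers and raises or lowers transcription of nearby genes. The enzyme Hsd11b1 regenerates active hormone inside a cell and Hsd11b2 inactivates it. Circulating glucocorticoid rises in rodent fetuses towards birth and is known for its part in the maturation of lung, gut and kidney epithelia. None of the 9 genes answers to glucocorticoid alone: Per1 also follows the clock, Mt1 and Mt2 follow zinc and other metals, and Cebpd follows inflammatory signals.

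The libraries carried the 9 epithelial markers looked for (Epcam, Cdh1, Krt8 and others), with summed levels of 6138 to 9617 CPM (counts scaled to a common library size, after TMM normalisation) in E18.5 bladder, 5523 to 6458 in E18.5 urethra, 7181 to 8613 in E14.5 bladder and 2614 to 5257 in E14.5 urethra. They also carried all 14 mesenchyme markers (Col1a1, Pdgfra, Dcn and others), with sums of 19570 to 29800 CPM in E18.5 bladder, 4402 to 5331 in E18.5 urethra, 906 to 4290 in E14.5 bladder and 2131 to 6071 in E14.5 urethra. In E14.5 urethra the mesenchyme sum was above the epithelial sum in replicates 3 (6071 against 2624 CPM) and 4 (3534 against 2614 CPM). In E18.5 bladder the mesenchyme sum was above the epithelial sum in every library. Smooth muscle markers (5039 to 13210 CPM in E18.5 bladder, 1028 to 2334 CPM in E18.5 urethra), endothelial markers (357 to 529 CPM in E18.5 bladder, 91.4 to 143 CPM in E18.5 urethra) and leukocyte markers (189 to 261 CPM in E18.5 bladder, 68.2 to 79.8 CPM in E18.5 urethra) moved the same way. These values stand beside every bladder result at E18.5 and every urethral result at E14.5. In bulk RNA, fewer cells of a type and less RNA per cell cannot be told apart.

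Promoter sequence could be read for 7 of the 9 genes, in 15 windows of 300 bases (250 before to 50 after an annotated start site) from RefSeq on GRCm38.p6. A perfect glucocorticoid response element, searched on both strands as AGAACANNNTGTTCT, is a pair of hexamers facing each other across 3 bases. It was found in 1 of the 15 windows, at Sgk1 on chromosome 10, where it lay 175 to 189 bases before the start site of that window. Sgk1 has several annotated start sites. Its other windows, among them those that begin at 21991973 and 21994416, did not hold the element. Of all 32851 RefSeq windows of this length, 3 held it (0.00913%). In the window at chr10:21993640-21993939 (plus strand) capitals mark that element:
Sgk1: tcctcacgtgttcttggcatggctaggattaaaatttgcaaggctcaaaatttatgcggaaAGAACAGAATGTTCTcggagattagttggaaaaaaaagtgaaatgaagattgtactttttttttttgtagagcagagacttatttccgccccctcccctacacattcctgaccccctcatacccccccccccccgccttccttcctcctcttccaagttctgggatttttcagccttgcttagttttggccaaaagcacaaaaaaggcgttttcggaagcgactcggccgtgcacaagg

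The metal response core TGCACNC or TGCGCNC, the kind of element bound by the zinc sensor Mtf1, was in 25.7% of all windows. It was in 4 of the 15 windows, at Mt1, Mt2, Sgk1 and Per1. The Mt1 window held 3 copies and the Mt2 window 4, counted on both strands. Mt2 lies just upstream of Mt1 on the plus strand of chromosome 8. Capitals mark the cores at chr8:94178839-94179138 for Mt1 and chr8:94172368-94172667 for Mt2, both read from the plus strand:
Mt1: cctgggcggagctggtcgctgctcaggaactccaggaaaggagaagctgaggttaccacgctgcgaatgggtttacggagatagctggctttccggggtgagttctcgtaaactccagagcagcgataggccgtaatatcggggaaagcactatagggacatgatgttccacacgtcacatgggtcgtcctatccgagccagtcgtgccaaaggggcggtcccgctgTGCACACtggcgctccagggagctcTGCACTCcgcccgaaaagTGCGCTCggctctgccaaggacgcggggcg
Mt2: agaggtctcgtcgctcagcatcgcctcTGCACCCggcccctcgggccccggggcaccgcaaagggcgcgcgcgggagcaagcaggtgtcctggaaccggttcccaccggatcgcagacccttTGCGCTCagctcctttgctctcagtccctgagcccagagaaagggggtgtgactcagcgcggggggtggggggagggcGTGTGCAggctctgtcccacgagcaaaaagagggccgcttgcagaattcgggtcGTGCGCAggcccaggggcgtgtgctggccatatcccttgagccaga

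The single hexamer TGTTCT, which overlaps the paired element, was in 4 of the 15 windows and in 19.0% of all windows. The E-box CACGTG, the element of the clock factors, was in 3 of the 15 windows (at Sgk1, Fkbp5 and Per1) and in 7.15% of all. A match describes these letters in these windows, and enhancers farther away were not searched.

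Sgk1 (chr10:21882184-21999903, plus strand, GRCm38 as the files give it) encodes a kinase that keeps the epithelial sodium channel at the cell surface by restraining the ubiquitin ligase Nedd4l. Its normalised level was 22.8, 22.9 and 20.3 CPM in E18.5 bladder, 71.5, 64.9 and 77.8 CPM in E18.5 urethra, 13.3, 10.5, 11.5 and 9.21 CPM in E14.5 bladder, and 13.4, 16.5, 20.2 and 15.7 CPM in E14.5 urethra. The E18.5 urethra stood above every other library, and in both tissues each E18.5 library exceeded each E14.5 library. The ratio of stage means, E18.5 over E14.5, was 1.97 in bladder and 4.34 in urethra. Bladder was lower than urethra at E18.5 by 1.76 on the log2 scale (log2 fold change -1.76, SE 0.12, adjusted p = 3.07e-05 by edgeR's quasi-likelihood test). At E14.5 it was lower by less (log2 fold change -0.59, SE 0.17, adjusted p = 0.0241), which did not pass when bladder replicate 2 (adjusted p = 0.0572), bladder replicate 4 (0.0686) or urethra replicate 2 (0.058) or 3 (0.061) was left out. The difference between tissues itself differed between stages by -1.14 (SE 0.21, adjusted p = 0.00326).

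Fkbp5 (chr17:28399094-28517527, minus strand) encodes an immunophilin co-chaperone that lowers the receptor's affinity for hormone and is itself induced by hormone, a short feedback loop. It measured 96.1, 91.2 and 78.3 CPM in E18.5 bladder, 29.7, 29.9 and 46.1 CPM in E18.5 urethra, 37.3, 49.7, 63.0 and 51.4 CPM in E14.5 bladder, and 37.02, 49.8, 53.1 and 40.8 CPM in E14.5 urethra. The E18.5 bladder libraries stood above all 11 others, while in urethra the stages overlapped. Between stages the mean log2 level was 0.83 higher in bladder and 0.37 lower in urethra at E18.5 (differences of 0.83 and -0.37). Bladder exceeded urethra 2.41-fold at E18.5 (log2 fold change 1.27, SE 0.18, adjusted p = 0.00104, edgeR). At E14.5 the test was not passed (log2 fold change 0.12, 95% interval -0.28 to 0.53, adjusted p = 0.594), and the difference between tissues changed with stage by 1.17 (SE 0.28, adjusted p = 0.0104).

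Tsc22d3 (chrX:140539528-140600659, minus strand) encodes GILZ, a leucine zipper protein that carries part of the anti-inflammatory action of glucocorticoids. Its levels were 55.1, 49.6 and 51.6 CPM in E18.5 bladder, 26.5, 33.6 and 36.5 CPM in E18.5 urethra, 11.7, 5.61, 15.7 and 10.8 CPM in E14.5 bladder, and 31.8, 40.7, 42.8 and 44.1 CPM in E14.5 urethra. Bladder held the highest libraries at E18.5 and the lowest at E14.5, and the tissues did not overlap at either stage. Bladder was 1.55-fold higher than urethra at E18.5 (log2 fold change 0.64, SE 0.14, adjusted p = 0.00771) and 3.72-fold lower at E14.5 (log2 fold change -1.89, SE 0.29, adjusted p = 0.0015, edgeR). The change of sign passed the test of the difference (2.56, SE 0.36, adjusted p = 0.000815). The 4 E14.5 bladder libraries had the same order in Tsc22d3 and in the mesenchyme sum (2784, 906, 4290 and 1915 CPM for replicates 1 to 4). With the mean log2 level of the mesenchyme markers as a covariate, Tsc22d3 was the 1 gene of the 9 that passed at E14.5 (log2 fold change -1.22, adjusted p = 0.00672).

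**Figure D1:**
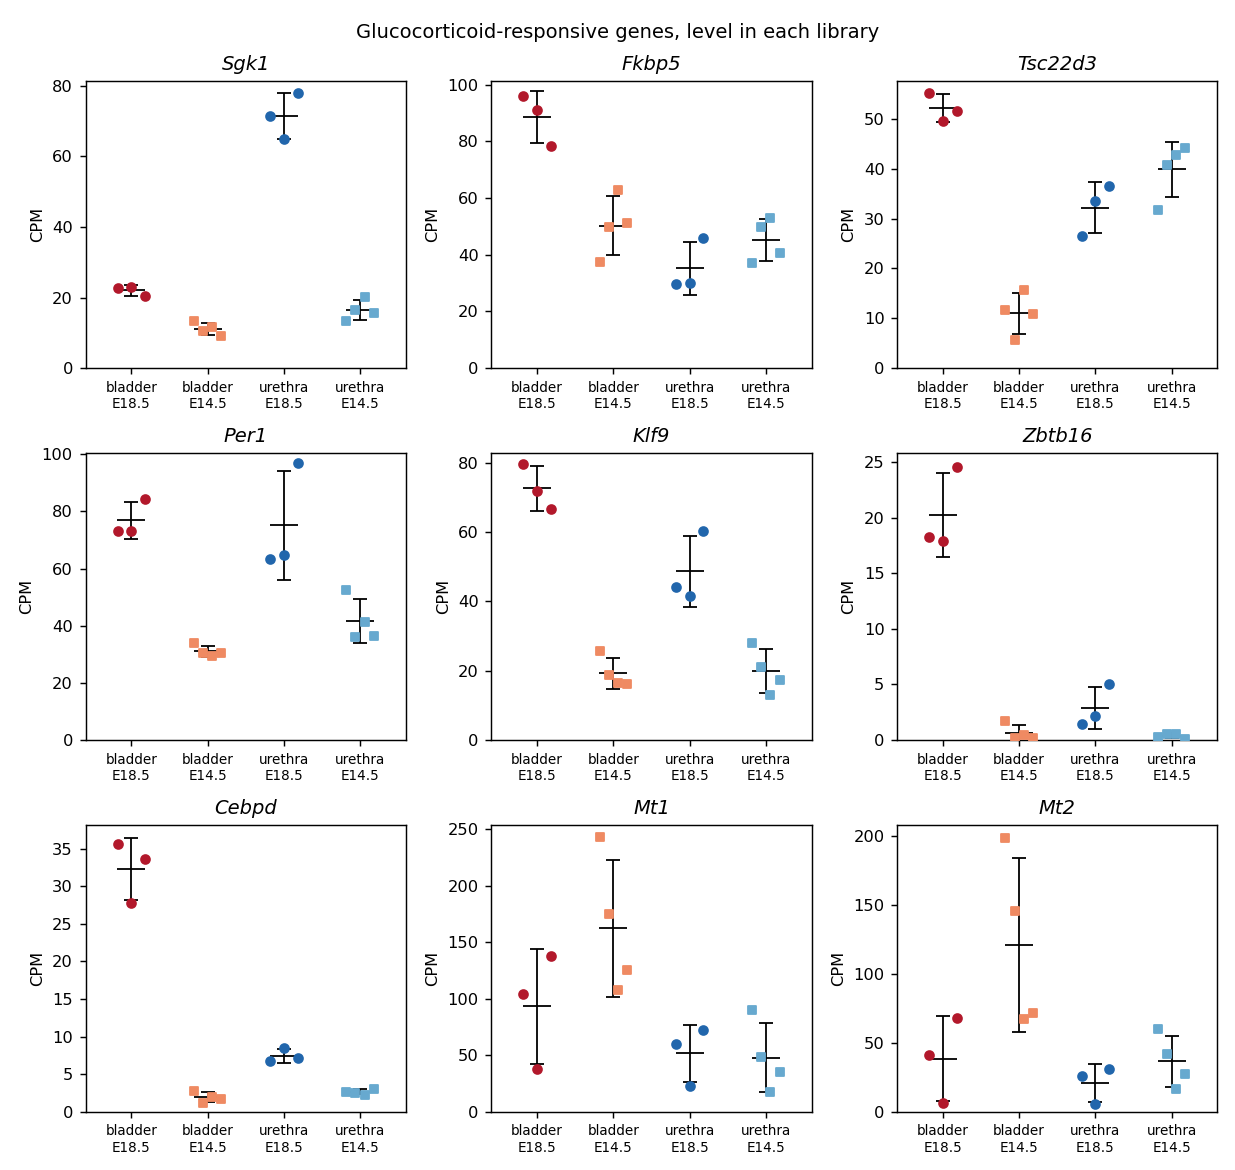
Level of each of the 9 genes in CPM (vertical axis) in every library, by tissue and stage; horizontal lines are group means and bars their SD (n = 3 at E18.5, n = 4 at E14.5). Sgk1 is highest in the 3 urethral libraries at E18.5 (64.9 to 77.8 CPM), Zbtb16 and Cebpd in the 3 bladder libraries at E18.5, and Mt1 and Mt2 in E14.5 bladder.

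Per1, Klf9, Zbtb16 and Cebpd encode transcriptional regulators. Per1 (chr11:69095217-69109960, plus strand) is a repressor of the circadian clock. It measured 73.1, 73.0 and 84.5 CPM in E18.5 bladder, 63.5, 64.6 and 97.1 CPM in E18.5 urethra, 33.9, 30.4, 29.6 and 30.5 CPM in E14.5 bladder, and 52.5, 36.1, 41.4 and 36.4 CPM in E14.5 urethra. Both tissues were higher at E18.5 without overlap, with ratios of means of 2.47 in bladder and 1.81 in urethra. At E18.5 the tissues did not pass the test (log2 fold change -0.02, 95% interval -0.43 to 0.39, adjusted p = 0.934). At E14.5 bladder was 1.37-fold lower (log2 fold change -0.45, SE 0.13, adjusted p = 0.0214), which did not pass when bladder replicate 2 (0.0507) or 4 (0.0598) was left out. The change of the tissue difference with stage did not pass with all libraries (0.45, adjusted p = 0.168) and passed without E18.5 urethra replicate 3, the highest of its group (0.69, adjusted p = 0.0372).

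Klf9 (chr19:23141226-23168134, plus strand) encodes a zinc finger factor that slows proliferation in several epithelia. Its levels were 79.5, 71.7 and 66.6 CPM in E18.5 bladder, 44.2, 41.4 and 60.3 CPM in E18.5 urethra, 25.7, 18.7, 16.5 and 16.04 CPM in E14.5 bladder, and 27.9, 21.2, 13.1 and 17.1 CPM in E14.5 urethra. The stages did not overlap in either tissue, with ratios of means of 3.77 in bladder and 2.45 in urethra. Bladder was 1.43-fold higher at E18.5 (log2 fold change 0.52, SE 0.16, adjusted p = 0.0306), which missed the threshold when bladder replicate 1 (0.0677) or 2 (0.0558) or urethra replicate 1 (0.113) or 2 (0.0816) was left out. Neither the E14.5 difference (-0.07, 95% interval -0.63 to 0.49, adjusted p = 0.835) nor the change with stage (0.62, adjusted p = 0.199) passed.

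Zbtb16 (chr9:48654297-48836222, minus strand) encodes PLZF, a zinc finger repressor strongly induced by steroid receptors in several cell types. It reached 18.2, 17.9 and 24.6 CPM in E18.5 bladder and 1.41, 2.18 and 5.03 CPM in E18.5 urethra. At E14.5 it rested on few reads, with 56, 6, 10 and 6 counts in bladder (1.74, 0.171, 0.460 and 0.202 CPM) and 6, 13, 14 and 3 counts in urethra (0.264, 0.533, 0.562 and 0.118 CPM). The log2 differences between stages were 5.31 in bladder and 2.69 in urethra, the widest of the 9 genes in each tissue. Bladder exceeded urethra 6.69-fold at E18.5 (log2 fold change 2.74, SE 0.43, adjusted p = 0.00155, edgeR). At E14.5 the interval ran from -1.1 to 2.63 (log2 fold change 0.77, adjusted p = 0.468), and without bladder replicate 1, which held the 56 counts, the value was -0.51 (adjusted p = 0.542). The change with stage did not pass (2.00, adjusted p = 0.176) and passed without that library (3.28, adjusted p = 0.015).

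Cebpd (chr16:15887286-15891031, plus strand) encodes a bZIP factor of the acute phase and of fat cell and lung maturation. Its levels were 35.7, 27.7 and 33.6 CPM in E18.5 bladder, 6.71, 8.47 and 7.19 CPM in E18.5 urethra, 2.79, 1.196, 1.98 and 1.68 CPM in E14.5 bladder, and 2.64, 2.50, 2.29 and 3.07 CPM in E14.5 urethra. The E18.5 bladder was highest, the E18.5 urethra next without overlap, and the E14.5 groups overlapped each other below both. The mean ratio of stages was 16.9 in bladder and 2.84 in urethra. Bladder exceeded urethra 4.17-fold at E18.5 (log2 fold change 2.06, SE 0.17, adjusted p = 7.01e-05), with no call at E14.5 (-0.49, 95% interval -1.15 to 0.17, adjusted p = 0.199), and the change with stage passed (2.57, SE 0.33, adjusted p = 0.000578, edgeR). Cebpd overlaps Spidr, a DNA repair gene on the other strand, and the strand setting of the counting is not given in the sources used here. Spidr measured 30.2 ± 0.394 CPM in E18.5 bladder, 23.6 ± 2.41 in E18.5 urethra, 35.8 ± 4.59 in E14.5 bladder and 32.8 ± 2.74 in E14.5 urethra (SD, n = 3 at E18.5, n = 4 at E14.5). Reads of Spidr within the overlap were not counted apart, and their part in the Cebpd values was not tested. Fkbp5 and Mt2 also have noncoding transcripts annotated on the opposite strand, so the same limit holds for them.

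Mt1 (chr8:94179082-94180327) and Mt2 (chr8:94172664-94173568), both on the plus strand, encode metallothioneins, small cysteine-rich proteins that bind zinc and copper. Mt1 measured 104, 37.8 and 137 CPM in E18.5 bladder, 59.7, 23.1 and 72.0 CPM in E18.5 urethra, 243, 175, 107 and 125 CPM in E14.5 bladder, and 89.6, 48.7, 17.8 and 35.3 CPM in E14.5 urethra. Mt2 measured 41.3, 6.55 and 67.8 CPM in E18.5 bladder, 25.8, 5.59 and 31.4 CPM in E18.5 urethra, 199, 146, 67.3 and 71.3 CPM in E14.5 bladder, and 59.7, 41.7, 16.8 and 27.6 CPM in E14.5 urethra. In E18.5 bladder the highest library was 3.63 times the lowest for Mt1 and 10.3 times for Mt2, beside at most 1.37 times for the other 7 genes. In E18.5 urethra it was 3.12 times the lowest for Mt1, 5.61 times for Mt2 and 3.57 times for Zbtb16, beside at most 1.55 times for the other 6. At each stage the replicate numbers had the same order in both tissues, for Mt1 and for Mt2. Replicate 2 was the lowest at E18.5 and replicate 3 at E14.5. In bladder the mean log2 difference between stages was -0.92 for Mt1 and -2.04 for Mt2, with overlapping groups, so these genes did not share the higher E18.5 levels of the other 7. In urethra the differences were 0.19 for Mt1 and -0.98 for Mt2, and that of Mt1 changed sign without E14.5 urethra replicate 3 (-0.21) or E18.5 urethra replicate 3 (-0.13).

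Between tissues, bladder exceeded urethra at E14.5 3.34-fold for Mt1 (log2 fold change 1.74, SE 0.46, adjusted p = 0.0165) and 3.25-fold for Mt2 (log2 fold change 1.70, SE 0.46, adjusted p = 0.0183, edgeR). Both calls were lost without E14.5 urethra replicate 4 (adjusted p = 0.0506 for Mt1 and 0.0546 for Mt2). At E18.5 neither passed, with intervals of -0.36 to 1.97 for Mt1 (log2 fold change 0.80, adjusted p = 0.253) and -0.98 to 2.65 for Mt2 (log2 fold change 0.84, adjusted p = 0.446). The changes with stage did not pass either (-0.91, adjusted p = 0.426 for Mt1 and -0.85, 0.583 for Mt2). With the replicate number as a block in edgeR, Mt1 passed at E18.5 (0.76, adjusted p = 0.00445). So did the changes with stage of Mt1 (-1.1, 0.0163) and Mt2 (-1.03, 0.0156). These calls thus depend on whether equal numbers are pairs, which is not given. The ratio of Mt2 to Mt1 counts was 0.396, 0.173 and 0.494 in E18.5 bladder, 0.432, 0.242 and 0.435 in E18.5 urethra, 0.819, 0.834, 0.627 and 0.569 in E14.5 bladder, and 0.667, 0.857, 0.948 and 0.783 in E14.5 urethra. All 6 E18.5 libraries lay below all 8 E14.5 libraries in this ratio. The genes are close copies, so the counting could have split shared reads between them, and the ratio is a description with no test.

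In E18.5 bladder, all 7 genes other than Mt1 and Mt2 lay above every E14.5 bladder library, beside 22.4% of all 18286 genes tested (23.9% lay below). In urethra 5 of the 9 did so (Sgk1, Per1, Klf9, Zbtb16 and Cebpd), beside 19.4% of all genes (19.0% lay below). The choice of the genes used this contrast, so nothing is read from these counts. Markers of several cell types moved with stage as well (edgeR). In bladder at E18.5, 11 of the 14 mesenchyme, all 10 smooth muscle, 9 of 10 endothelial and all 10 leukocyte markers rose, while 3 of the 9 epithelial markers fell and 1 rose. In urethra at E18.5, 7 of the 9 epithelial, 6 of the 10 smooth muscle and all 6 skeletal muscle markers rose, and of the mesenchyme markers 2 rose and 2 fell. The skeletal muscle markers (Ckm, Acta1 and others) summed to 514 to 1685 CPM in E18.5 bladder, 236 to 470 CPM in E18.5 urethra, 1.35 to 8.88 CPM in E14.5 bladder and 2.87 to 42.4 CPM in E14.5 urethra. The sum does not speak for each of the 6 genes. In bladder 3 rose at E18.5 (Ckm, Tnnc2 and Acta1) and 0 fell, beside 19.9% and 20.4% of all genes. Against urethra at E18.5, 2 were higher in bladder (Ckm and Acta1) and 3 lower (Myh3, Ttn and Myog), beside 19.3% and 18.6%. The part of these markers in the stage differences was not tested. On a scale that allows genes to be compared (CPM per kilobase of gene length), the order in E18.5 bladder was Mt1 (74.7), Mt2 (65.5), Klf9 (15.1), Per1 (13.6), Tsc22d3 (12), Fkbp5 (9.35), Cebpd (8.63), Sgk1 (4.49) and Zbtb16 (3.83). In replicate 2 Mt2 lay below Klf9, Per1 and Tsc22d3 on this scale, so its place is not the same in every library, and Mt1 and Mt2 spread too widely to be ordered against each other.

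**Figure D2:**
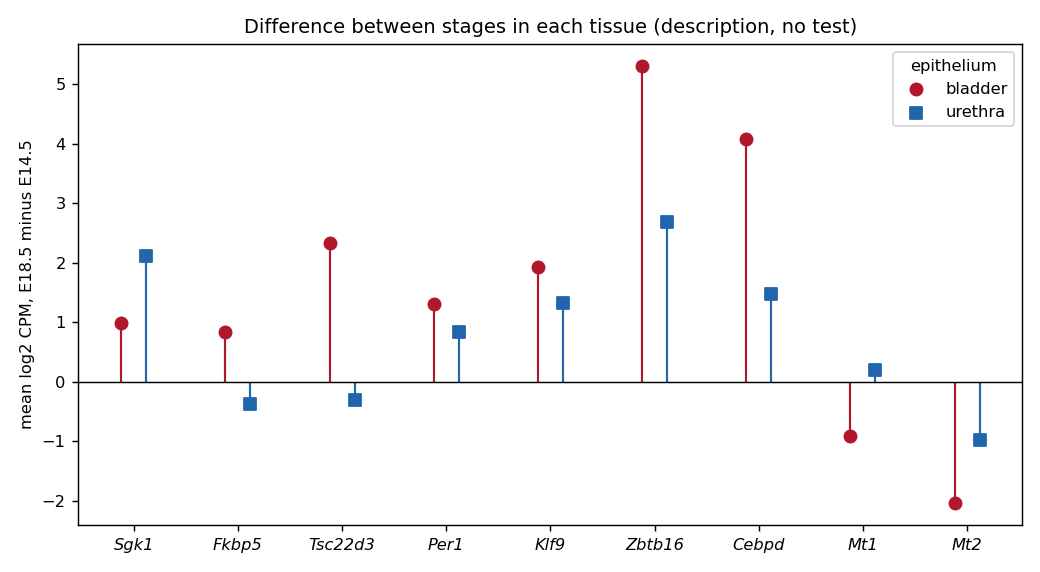
Mean log2 CPM at E18.5 minus that at E14.5 (vertical axis) for each gene, in bladder (circles) and urethra (squares), a description with no test. Zbtb16 has the largest difference in both tissues (5.31 and 2.69), Mt2 lies below 0 in both (-2.04 and -0.98), and Fkbp5 and Tsc22d3 have opposite signs in the tissues.

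Bladder against urethra at E18.5, 6 of the 9 genes passed (5 higher in bladder, 1 lower), beside 37.9% of the 17513 genes tested (19.3% higher, 18.6% lower). The groups did not overlap for the same 6 genes, beside 49.9% of all genes. At E14.5, 5 of the 9 passed (2 higher in bladder, 3 lower), beside 44.0% of 16697 genes (23.1% higher, 20.9% lower), and again the groups of these 5 did not overlap, beside 38.3% of all genes. The tissue difference changed with stage for 4 of the 9 (3 towards bladder, 1 towards urethra), beside 22.9% of 18286 genes (12.2% towards bladder, 10.7% towards urethra). The E14.5 share is close to its background. The choice of the genes used the levels in these same libraries, so nothing is read from how the other shares lie to theirs. The mesenchyme markers moved with the bladder side of these results: at E18.5, 11 of the 14 were higher in bladder by the same test. At E14.5, 5 of the 14 were lower in bladder, where Sgk1, Tsc22d3 and Per1 were lower too, and 7 of the 9 epithelial markers were higher, as Mt1 and Mt2 were. The mesenchyme score separated the tissues completely at E18.5, so score and tissue cannot be told apart there. With the score as a covariate, 2 of 17513 genes and 0 of the 9 passed with edgeR. In that fit Sgk1, Zbtb16 and Cebpd had an unadjusted p below 0.05 (3 of 9), beside 2065 of the 17513 genes. Of the 6 genes that passed at E18.5, Sgk1 was the one whose level ran against the marker sums at E18.5, with its lowest tissue being the one with the highest sums, and its log2 fold change with the covariate was -1.94 (adjusted p = 0.165). In the same edgeR fit the values were 2.02 for Cebpd (adjusted p = 0.222), 3.13 for Zbtb16 (0.422) and 0.60 for Fkbp5 (0.798). They were 0.33 for Tsc22d3 (adjusted p = 0.882) and 0.11 for Klf9 (0.976). Those of Mt1 and Mt2 moved away from 0, to 2.95 (adjusted p = 0.522) and 4.05 (0.576). Since score and tissue cannot be told apart at E18.5, these values show for no gene whether the mesenchyme markers had a part in its difference.

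**Figure D3:**
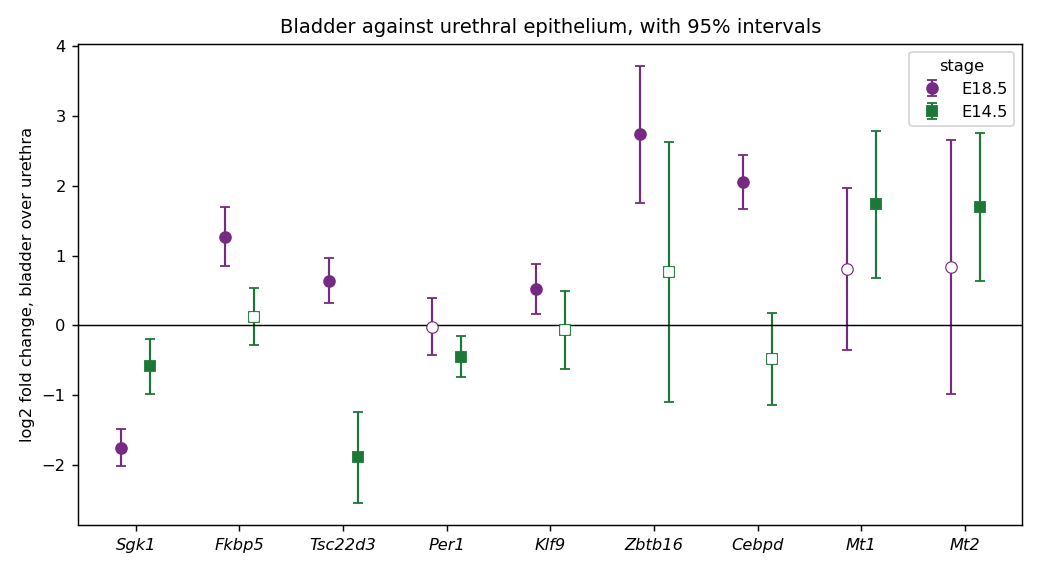
Log2 fold change of bladder over urethra (vertical axis) with its 95% interval for each gene, at E18.5 (circles) and E14.5 (squares); filled symbols passed an adjusted p of 0.05 and white centres did not. Tsc22d3 lies at 0.64 at E18.5 and -1.89 at E14.5, and Sgk1 lies below 0 at both stages (-1.76 and -0.59).

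**Figure D4:**
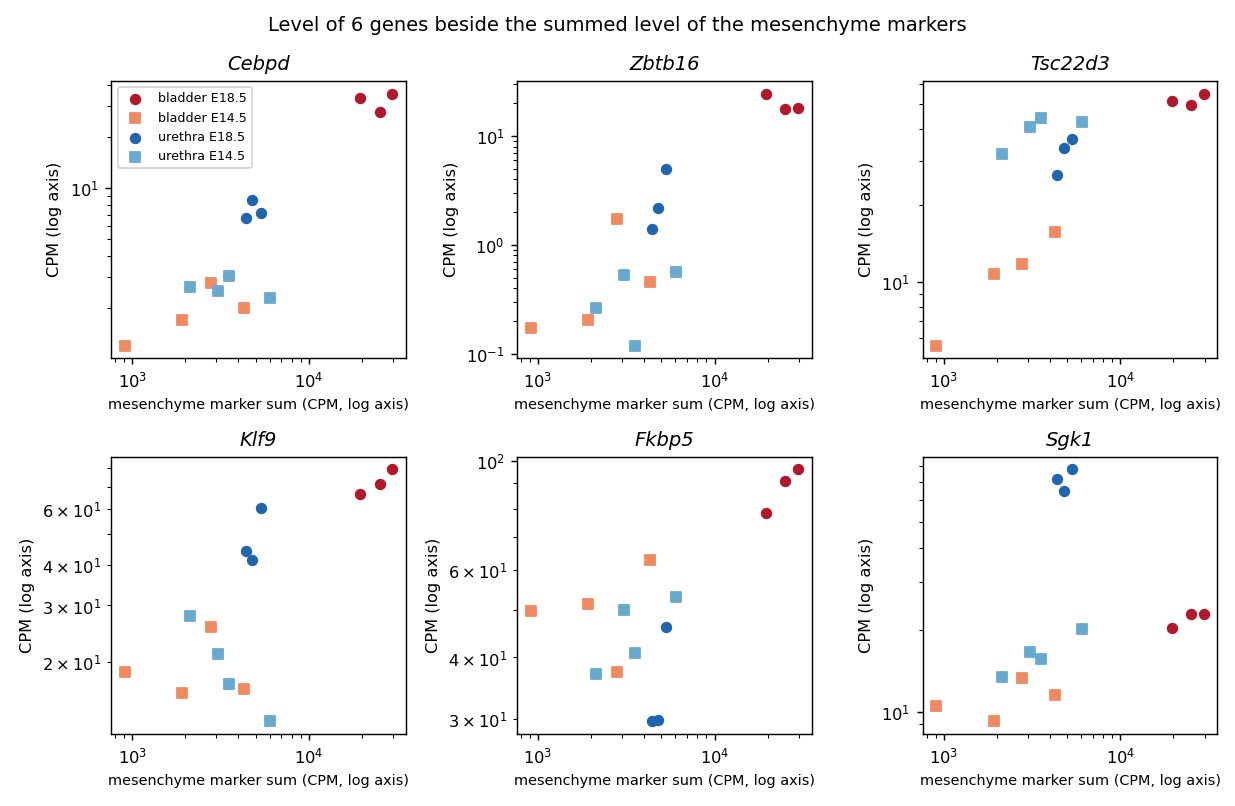
Level of 6 of the genes in CPM (vertical, log axis) against the summed CPM of the 14 mesenchyme markers (horizontal, log axis), 1 point per library. The 3 E18.5 bladder libraries lie at 19570 to 29800 CPM of marker sum and all others at 906 to 6071 CPM; Sgk1 is highest in E18.5 urethra, at sums of 4402 to 5331 CPM.

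Nr3c1, the glucocorticoid receptor gene, passed in no comparison made over all libraries. It measured 118, 117 and 109 CPM in E18.5 bladder, 128, 91.7 and 136 CPM in E18.5 urethra, 121, 119, 108 and 130 CPM in E14.5 bladder, and 208, 126, 92.1 and 122 CPM in E14.5 urethra. All 4 groups overlapped, with log2 fold changes of -0.06 between stages in bladder (adjusted p = 0.852), -0.21 between stages in urethra (0.49), -0.11 between tissues at E18.5 (0.623) and -0.22 between tissues at E14.5 (0.419). Without E18.5 urethra replicate 2 the E18.5 difference passed (-0.27, adjusted p = 0.0416). Nr3c2, the mineralocorticoid receptor, which binds the same hormone with higher affinity, fell in bladder at E18.5 (5.03 ± 0.378 CPM at E18.5, n = 3, and 11.96 ± 1.46 CPM at E14.5, n = 4, SD; log2 fold change -1.25, adjusted p = 0.000403, edgeR). In urethra it averaged 3.29 ± 0.278 CPM at E18.5 and 3.15 ± 0.759 CPM at E14.5 (log2 fold change 0.07, adjusted p = 0.831). Bladder exceeded urethra 3.72-fold at E14.5 (log2 fold change 1.9, adjusted p = 0.000528), and the tissue difference was smaller at E18.5 by 1.31 (change of -1.31, adjusted p = 0.00675).

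Of the genes that convert the hormone, Hsd11b1 rose and Hsd11b2 fell in urethra at E18.5, and both were higher in bladder than in urethra at that stage. Hsd11b1 measured 46.9, 51.8 and 42.6 CPM in E18.5 bladder, 0.855, 1.03 and 1.68 CPM in E18.5 urethra, and rested on 0, 2, 7 and 0 counts in E14.5 bladder and 8, 0, 8 and 4 counts in E14.5 urethra. It was thus near the floor at E14.5 and was high in E18.5 bladder, 37.2-fold above urethra (log2 fold change 5.22, SE 0.25, adjusted p = 9.76e-06, edgeR). It rose in bladder at E18.5 (fitted log2 fold change 9.14, which leans on the few E14.5 counts, SE 0.76, adjusted p = 5.81e-06) by more than in urethra (2.51, SE 0.69, adjusted p = 0.0148, and 2.21, adjusted p = 0.0522, without E18.5 urethra replicate 3), and the tissues differed in that change (6.63, SE 1.13, adjusted p = 0.00231). The E18.5 bladder libraries are also those with the high mesenchyme sums, and the part these cells have in the Hsd11b1 level was not tested. The edgeR fit with the covariate (4.66, adjusted p = 0.108) cannot tell score and tissue apart at E18.5.

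Hsd11b2 measured 5.33, 7.01 and 1.08 CPM in E18.5 bladder, 1.11, 0.941 and 1.40 CPM in E18.5 urethra, 5.77, 2.25, 9.25 and 5.65 CPM in E14.5 bladder, and 2.16, 12.8, 30.2 and 15.1 CPM in E14.5 urethra. It fell in urethra at E18.5 (log2 fold change -3.70, SE 0.83, adjusted p = 0.00512). In bladder the stages did not pass (-0.35, adjusted p = 0.739). Bladder exceeded urethra at E18.5 by 1.89 (log2, adjusted p = 0.0342), which missed the threshold when 1 of 5 libraries was left out, namely bladder replicate 1 (0.0804) or 2 (0.117), or urethra replicate 1 (0.0945), 2 (0.11) or 3 (0.0527). H6pd, which supplies NADPH to Hsd11b1, was higher in bladder at E18.5 (221 ± 9.97 CPM in bladder, 96.3 ± 13.4 CPM in urethra, SD, n = 3 each; log2 fold change 1.14, adjusted p = 0.000303). Of the 5 conversion and export genes, all passed as higher in bladder at E18.5, beside 19.3% of all genes, among them the hormone exporters Abcb1a and Abcb1b. At E14.5, 3 of the 5 were tested and 1 passed as higher (H6pd), beside 23.1% of all genes. Hsd11b2 had the other sign there and did not pass (-1.43, adjusted p = 0.126, edgeR). Endothelial markers were higher in E18.5 bladder too (9 of 10), and their part was not tested.

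**Figure D5:**
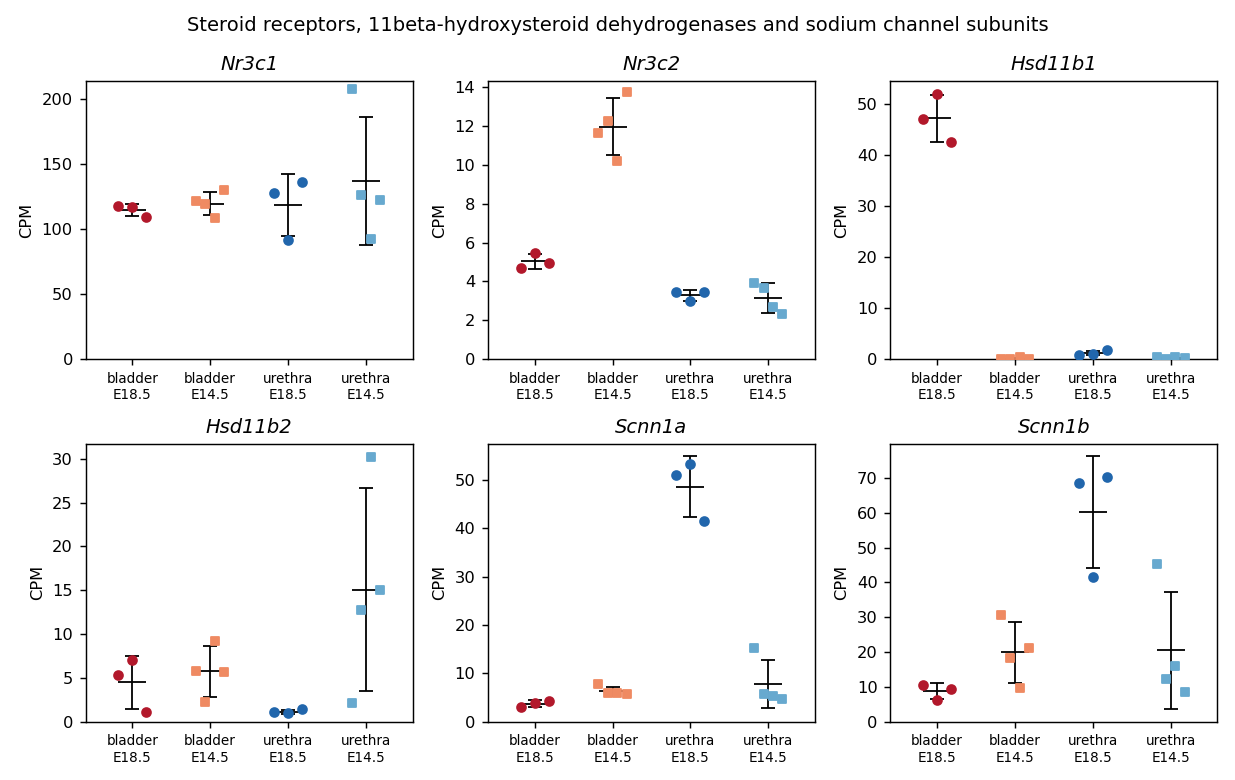
Level in CPM (vertical axis) of the receptors Nr3c1 and Nr3c2, the enzymes Hsd11b1 and Hsd11b2 and the sodium channel subunits Scnn1a and Scnn1b in every library; lines are group means and bars their SD (n = 3 at E18.5, n = 4 at E14.5). Hsd11b1 stands at 42.6 to 51.8 CPM in E18.5 bladder and below 2 CPM elsewhere, and Scnn1a at 41.5 to 53.3 CPM in E18.5 urethra.

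Sodium transport genes downstream of Sgk1 were lower in bladder than in urethra at E18.5 in 3 of 6 cases (Scnn1a, Scnn1b and the sodium pump subunit Atp1b1), beside 18.6% of all genes. Scnn1a, the pore subunit without which the channel does not assemble, measured 3.00, 3.96 and 4.33 CPM in E18.5 bladder, 51.2, 53.3 and 41.5 CPM in E18.5 urethra, 7.76, 5.87, 5.94 and 5.75 CPM in E14.5 bladder, and 15.3, 5.74, 5.30 and 4.81 CPM in E14.5 urethra. Its E18.5 urethra libraries stood above every other library. Bladder was 13.4-fold lower than urethra at E18.5 (log2 fold change -3.74, SE 0.19, adjusted p = 1.2e-05, edgeR) and did not pass at E14.5 (-0.32, adjusted p = 0.509), and the change with stage was -3.39 (SE 0.49, adjusted p = 0.00101). Scnn1b followed at 10.5, 6.21 and 9.499 CPM in E18.5 bladder against 68.6, 41.7 and 70.3 CPM in E18.5 urethra (log2 fold change -2.84, SE 0.27, adjusted p = 0.000144). Of the 6 listed genes (3 channel subunits, 2 sodium pump subunits and Nedd4l), 5 rose in urethra at E18.5, beside 17.3% of all genes (33.0% in either direction, 15.7% falling), with a list median of 0.97 against 0.00 for all genes. That count fell to 1 without E14.5 urethra replicate 2, 3 or 4 or E18.5 urethra replicate 1 or 3, and Scnn1a rose by 2.65 with all libraries (SE 0.34, adjusted p = 0.000258). The epithelial markers rose in urethra too (7 of 9), and their part was not tested.

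All gene lists, above and below, were chosen with earlier results of these data known. Their counts and medians beside those of all genes are thus a description. Beyond the 9, a list of 29 other genes known to be induced by glucocorticoid in other tissues was read, of which 28 were tested. In bladder 10 rose at E18.5, beside 19.9% of all genes (40.3% in either direction, 20.4% falling), and 2 fell (Errfi1 and Bcl6). The falls numbered 0 without E14.5 bladder replicate 2 or 4, E18.5 bladder replicate 1 or 2 or any E18.5 urethra library, and 1 without E14.5 bladder replicate 1 or 3, E14.5 urethra replicate 2 or 4 or E18.5 bladder replicate 3. The list median was 0.48 against 0.00 for all genes. Dusp1, a phosphatase that switches off MAP kinases, averaged 24.7 ± 2.6 CPM at E18.5 and 5.92 ± 0.858 CPM at E14.5 in bladder (log2 fold change 2.06, SE 0.16). Klf15, a regulator of amino acid and lipid metabolism, averaged 9.73 ± 2.79 CPM at E18.5 and 0.623 ± 0.131 CPM at E14.5 (3.94, SE 0.37, adjusted p = 1.09e-05). Rgs2, an inhibitor of G protein signalling, averaged 66.9 ± 31.4 CPM at E18.5 and 6.07 ± 3.17 CPM at E14.5 (3.47, SE 0.41).

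In urethra 11 of the 28 rose at E18.5, beside 17.3% of all genes, and 2 fell, beside 15.7% (Angptl4 and Irs2; 1 without E14.5 urethra replicate 3, E18.5 bladder replicate 2 or E18.5 urethra replicate 1 or 2), with a list median of 0.54 against 0.00 for all genes. The genes with the smallest adjusted p there were Zfp36, an mRNA decay factor (84.0 ± 7.69 CPM at E18.5, 25.4 ± 12.1 CPM at E14.5, log2 fold change 1.73), Pck1, a gluconeogenic enzyme (4.07 ± 2.36 CPM at E18.5, 0.241 ± 0.13 CPM at E14.5, 4.06), and Map3k6, a stress kinase (23.9 ± 7.54 CPM at E18.5, 6.06 ± 3.03 CPM at E14.5, 1.98). Between tissues at E18.5, 9 of the 28 were higher in bladder and 11 lower (19.3% and 18.6% of all genes), and at E14.5, of 26 tested, 6 were higher and 9 lower (23.1% and 20.9% of all genes). The list thus had no single direction between tissues. Of 13 listed inflammatory genes known to be repressed by glucocorticoid, 5 were tested between stages. In bladder 4 rose at E18.5 (among them Ptgs2, Vcam1 and Icam1) and 0 fell, beside 19.9% and 20.4% of all genes. The list median was 2.33 there. In urethra 2 rose (Icam1 and Ptgs2) and 0 fell, beside 17.3% and 15.7%, with a list median of 0.33. Leukocyte markers rose in bladder as well, and their part was not tested. Immediate early genes (Fos, Jun, Egr1 and others), which answer quickly to many stimuli, were summed beside these at 671 to 782 CPM in E18.5 bladder, 1012 to 1183 CPM in E18.5 urethra, 531 to 661 CPM in E14.5 bladder and 644 to 815 CPM in E14.5 urethra. In urethra 13 of 18 of them rose at E18.5, beside 17.3% of all genes, and their part in the other values was not tested.

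Of the 9 coregulators through which the receptor acts, 7 fell in bladder at E18.5, beside 20.4% of all genes, among them the coactivator Ncoa2 (log2 fold change -0.91, SE 0.11, adjusted p = 4.66e-05) and the corepressor Nrip1 (-0.98, SE 0.15, adjusted p = 0.000327, edgeR), with a list median of -0.49 against 0.00 for all genes. In urethra 3 of the 9 fell, beside 15.7% of all genes, with a list median of -0.14 against 0.00. Fkbp4, the immunophilin that acts against Fkbp5 in the receptor complex, averaged 294 ± 24.4 CPM in E18.5 bladder and 455 ± 50.4 CPM in E14.5 bladder (log2 fold change -0.63, SE 0.10, adjusted p = 0.000408). In urethra it averaged 357 ± 18 CPM at E18.5 and 473 ± 31.7 CPM at E14.5 (-0.41, SE 0.10, adjusted p = 0.00929, and -0.33, adjusted p = 0.0574, without E18.5 urethra replicate 3). Fkbp5 thus stood higher and Fkbp4 lower in E18.5 bladder, while in urethra Fkbp4 fell and Fkbp5 overlapped between stages.

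Genes whose log2 CPM followed each of the 9 most closely over the 14 libraries were ranked among 11680 genes with a mean of at least 5 CPM. The measure is Pearson's r, a description with no p, over libraries that share tissue and stage. For Sgk1 the closest were Ly6e (r = 0.958), F3 (0.954) and Nfatc1 (0.95), for Fkbp5 Ednrb (0.946), Lipa (0.944) and Mesd (0.939), and for Tsc22d3 Fstl1 (0.974), Cox4i2 (0.973) and Rcsd1 (0.967). For Per1 they were Cd200 (0.963), Suco (0.957) and P4ha1 (0.952), for Klf9 Pygl (0.979), Pfkp (0.97) and Ephx1 (0.968), for Zbtb16 Snx21 (0.964), Eif4e3 (0.961) and Itm2c (0.957), and for Cebpd Rarres2 (0.983), Cd163 (0.981) and Klf4 (0.981). Mt1 had lower best values, with Hint2 (0.913), Atf1 (0.898) and Siae (0.893), as did Mt2, with Rsbn1l (0.909), Gpld1 (0.895) and the zinc exporter Slc30a1 (0.871).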

How the data were processed

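RNA-seq counts per gene came from 2 deposited tables, 1 per stage, each with whole-number counts for 55228 genes and 1 column per library. Per the labels' protocols the libraries were poly(A) selected with a strand-marking kit. Per the submitters' processing notes, the authors used bcl2fastq, HISAT2 2.2.1, SAMtools 1.9 and GRCm38; nothing is given on the program that counted, whether it used strand, or its annotation, so shared reads between gene copies or opposite strands may be assigned either way.

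From these counts, CPM was computed on TMM effective library sizes of all 14 libraries (edgeR 4.0.16, R 4.3.3), and log2 CPM with a prior count of 2. Bladder against urethra was fitted for each stage alone. The change with stage, and the stage contrasts used for other genes, came from 1 fit of the 4 groups. All tests were edgeR's quasi-likelihood F test after filterByExpr, with Benjamini-Hochberg adjustment over all genes tested and a threshold of 0.05. DESeq2 1.42.0, its size factors, other filters, a replicate block, the averaged log2 CPM of 14 mesenchyme markers (the mesenchyme score) as covariate, a prior count of 0.5 and leaving out each library were tried as alternatives. The fitting code was also run on simulated counts with known changes.

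The 9 genes and all gene lists were chosen with earlier results of these data known. Named beside them are Nr3c1, Nr3c2, Hsd11b1 and Hsd11b2, and from each list up to 3 genes per direction with the smallest adjusted p. Other list genes (Scnn1b's and Abcb1b's values) and the choice of which comparisons to spell out followed after values were seen. Replicate libraries differed by more than sampling noise in every group (chi-square per gene of 10.3 to 106). Motifs were searched on both strands of RefSeq windows on GRCm38.p6; 2 of the 9 genes had no window.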

Additional observations from a re-analysis of the deposited data

Results flagged for a closer look

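For 4 of the 9 genes the bladder minus urethra difference at E18.5 differed from that at E14.5 by the test of the difference itself, in log2 units. The share over all genes was 22.9%. This test draws on the stage values by which the genes were chosen, so the 4 calls are a description. The change was -1.14 for Sgk1, whose deficit in bladder was wider at E18.5. It was 1.17 for Fkbp5 and 2.57 for Cebpd, which were higher in bladder at E18.5 and passed no test at E14.5. It was 2.56 for Tsc22d3, which was higher in bladder at E18.5 and lower at E14.5. The mesenchyme sum was 19570 to 29800 CPM in E18.5 bladder, 4402 to 5331 CPM in E18.5 urethra, 906 to 4290 CPM in E14.5 bladder and 2131 to 6071 CPM in E14.5 urethra, and its part in these changes was not tested. By Dixon's criterion at the 95% level, applied to CPM, no E14.5 library was an outlier for the 9 genes, the receptors or the converting enzymes, over 26 groups. That includes Zbtb16 in E14.5 bladder, where replicate 1 held 56 counts and the others 6, 10 and 6. With 4 libraries per group the criterion can call only a very distant library, so it gives little assurance. Without replicate 1 the E14.5 difference of Zbtb16 turned from 0.77 to -0.51, and its change with stage passed (3.28, adjusted p = 0.015, edgeR). E14.5 urethra replicate 1 had an epithelial marker sum of 5257 CPM, beside 3192, 2624 and 2614 CPM in replicates 2 to 4. Leaving out this urethral library gave the most genes called of any library left out: 8394 between tissues at E14.5 and 5697 for the change with stage. Between stages it gave 8011 in bladder and 7260 in urethra, again the most. The cause was not tested.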

How the results depend on the processing

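DESeq2, its size factors in edgeR and the absence of a filter each left all 27 tissue results of the 9 genes with their direction and side of the threshold, as did a filter of at least 1 CPM for its 26. The largest effect was that of the mesenchyme score as covariate: 2 genes passed at E18.5 (6635 without it) and 0 of the 9 (6 without it), and at E14.5 2833 genes (7351 without it) and 1 of the 9 (5 without it), with 10 member calls lost in all; the score separates the tissues at E18.5. Leaving out 1 library at a time gave 4751 to 6628 genes and 5 to 6 of the 9 at E18.5, 5593 to 8394 genes and 3 to 5 of the 9 at E14.5, 2654 to 5697 genes and 4 to 5 of the 9 for the change with stage (lowest without E18.5 urethra replicate 1), 5952 to 8011 genes between stages in bladder and 4062 to 7260 in urethra; the cause was not tested. It kept 231 of 252 member values.

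Direction turned for the following. Per1 at E18.5 (-0.02) was 0 with the replicate block, 0.30 with the covariate, and -0.13 to 0.21 with 1 library left out. With 1 library left out at a time, the E14.5 tissue difference ran from -0.51 to 1.08 for Zbtb16, 0 to 0.22 for Fkbp5 and -0.26 to 0.14 for Klf9, and the Mt1 difference between stages in urethra from -0.21 to 0.69. Nr3c1 ran from -0.27 to 0.01 at E18.5, -0.37 to 0.05 at E14.5, -0.12 to 0.31 for the change with stage, -0.10 to 0.01 between stages in bladder and -0.33 to 0.06 in urethra. Between stages, Nr3c2 ran from -0.05 to 0.19 in urethra and Hsd11b2 from -0.86 to 0.10 in bladder. With the covariate, Hsd11b2 was -3.29 for the E18.5 tissues and 0.28 for the E14.5 ones, and for E18.5 Nr3c1 was 0.04, Nos2 -1.25, Hlf -0.20, Atp1b1 0.15 and Sgk3 0.18.

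Over all genes, same-numbered libraries of the tissues did not deviate together throughout (r of 0.138, -0.146 and -0.189 at E18.5 and 0.15, 0.131, 0.391 and -0.104 at E14.5). With so few libraries this cannot settle whether equal numbers are pairs. The library labels alternate bladder and urethra in their numbering, and Mt1 and Mt2 kept the same order of replicates in both tissues. No label states a shared litter, and the main fits do not use pairs. With the replicate block in edgeR, Mt1 at E18.5 passed (0.76, adjusted p = 0.00445), as did the change with stage of Mt1 (-1.1, adjusted p = 0.0163) and Mt2 (-1.03, adjusted p = 0.0156). Of 27 member values, 23 kept both their direction and their side of the threshold. Of 180 values of the other named genes, 163 kept theirs with the block and 1764 of 1974 kept theirs when a library was left out.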

Other observations

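Of the 16 clock genes listed beside Per1, 8 rose and 3 fell in bladder at E18.5, beside 19.9% and 20.4% of all genes, and 6 rose and 1 fell in urethra, beside 17.3% and 15.7%, by edgeR's quasi-likelihood test. Npas2, a partner of Arntl, averaged 10.5 ± 1.2 CPM at E18.5 (n = 3) and 0.875 ± 0.796 CPM at E14.5 (n = 4) in bladder (SD; log2 fold change 3.56, SE 0.54, adjusted p = 0.000256). In urethra it averaged 12.9 ± 1.3 CPM at E18.5 and 1.44 ± 0.824 CPM at E14.5 (3.17, SE 0.53, adjusted p = 0.00101). Dbp, an output gene of the clock, fell in bladder, with 8.45 ± 0.857 CPM at E18.5 and 16.04 ± 1.61 CPM at E14.5 (-0.92, SE 0.18, adjusted p = 0.00114). It was the gene that fell in urethra (11.4 ± 2.78 CPM at E18.5, 16.2 ± 2.08 CPM at E14.5; -0.50, SE 0.17, adjusted p = 0.0398), a call lost when E18.5 urethra replicate 1 or 2 or any E14.5 urethra library was left out (adjusted p of 0.0503 to 0.222). The time of day of collection is not given in the sources used here.

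The 10 zinc handling genes listed beside Mt1 and Mt2 had no single direction between tissues. At E18.5, 2 were higher in bladder and 2 lower, beside 19.3% and 18.6% of all genes, and at E14.5, 4 were higher and 4 lower, beside 23.1% and 20.9%. The importer Slc39a8 averaged 14.7 ± 1.21 CPM in E18.5 bladder and 60.9 ± 7.75 CPM in E18.5 urethra (log2 fold change -2.11, adjusted p = 2.87e-05, edgeR), and 4.60 ± 1.36 CPM in E14.5 bladder and 14.97 ± 3.25 CPM in E14.5 urethra (-1.74, adjusted p = 0.0017). Slc39a4, another importer, was also lower in bladder at E18.5 (-2.62, adjusted p = 0.000155) and at E14.5 (-2.00, adjusted p = 0.00153). The importer Slc39a1 was higher in bladder at E14.5 (0.48, adjusted p = 0.00501) and at E18.5 (0.28, adjusted p = 0.0496), and the E18.5 call was lost without any 1 of 5 of the 6 libraries, urethra replicate 2 being the exception (adjusted p of 0.0601 to 0.172). Mt1 and Mt2 were higher in bladder at E14.5.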
